A study of Homo sapiens with 6 samples.

Results

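The 10 genes described here belong to the Hippo pathway or are target genes of its effector YAP. They are the secreted matricellular proteins CCN1 and CCN2, the nuclear ankyrin-repeat protein ANKRD1, the angiomotin-like scaffolds AMOTL1 and AMOTL2, the kinases LATS1 and LATS2, the coactivators YAP1 and WWTR1 (TAZ), and the DNA-binding factor TEAD1. They were chosen by name, with the gene and transcript values of these same libraries known, and they are 10 of the 62700 genes listed. Their own differences between groups are therefore given as a description, with a standard error (SE) and no p-value. All libraries came from TCam-2, an established seminoma-type cell line from a human testicular cancer, and were made from polyadenylated RNA. Non-transduced cells (WT), cells that were transduced with GFP_FLAG (GFP), and cells that were transduced with RBMXL3_FLAG (RBMXL3) gave 2 libraries each. WT and GFP were the study's negative controls for overexpression of RBMXL3, an RNA-binding protein gene of the RBMX family. All cells were grown in the same serum-containing medium, and the vector, its promoter, the time after transduction and whether a transduced line is 1 clone are not given in the sources used here.

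In the Hippo pathway, the MST kinases (STK3 and STK4) phosphorylate LATS1 and LATS2, which in turn phosphorylate YAP and TAZ and keep them in the cytoplasm. When the kinases are inactive, YAP and TAZ enter the nucleus and bind TEAD factors, which recognise a short DNA motif upstream of genes such as CCN1, CCN2 and ANKRD1. LATS2 and the angiomotin-like genes are themselves YAP targets, so the pathway contains negative feedback, and angiomotin-like proteins hold YAP at cell junctions and actin filaments. YAP activity is set mainly by phosphorylation and location, which transcript levels do not record.

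The recovered read totals ran from 17685680 in RBMXL3 replicate 1 to 29318007 in WT replicate 1, with both RBMXL3 libraries below the 4 controls, and mitochondrial genes took 1.31% of reads in GFP replicate 1 against 2.02% to 3.02% elsewhere. RBMXL3 itself had 0 reads in the 4 control libraries and 84 and 68 reads in the RBMXL3 libraries. All 8 seminoma markers listed were detected, with a summed level of 104680 to 123055 normalised reads per library, and SOX2, a marker of embryonal carcinoma, stood at 11.7 to 34.2. Of the leukocyte markers, CD3E was at 0 in all 6 libraries, PTPRC was at 0 in 5 of 6, and CD14 stood at 6.36 to 10.2 normalised reads in the controls and 12.9 and 23.5 in RBMXL3. The labels do not say whether the 2 libraries of a group came from separate cultures, so the p-values measure only the spread between these samples, which may be technical. No batch is named in the labels, and an effect of preparation cannot be told apart from that of the group.

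Values below are the deposited normalised read counts of a gene, which are reads divided by 1 size factor per library, and the groups are given as mean ± SD over n = 2 libraries. A log2 change is a difference of group means of log2(value + 1) after division by a common factor, from limma fitted to all 14292 genes that passed the filter on low values, and understates the change of low genes. The threshold for calling a gene was an adjusted p (Benjamini-Hochberg) of 0.05 in that fit, and all 10 genes passed the filter. Of the 10, 2 were called in RBMXL3 against GFP (YAP1 higher, AMOTL1 lower), where 20.9% of all genes tested were called, 10.5% higher and 10.4% lower. Against WT 5 were called in RBMXL3 (WWTR1 higher, and CCN1, CCN2, AMOTL1 and TEAD1 lower), where 29.9% of all genes were, 14.6% higher and 15.3% lower. In GFP against WT 3 were called, all lower (CCN1, CCN2 and TEAD1), where 3.67% of all genes were, 1.76% higher and 1.91% lower. Only AMOTL1 among the 10 was called in the same direction against both controls, as were 13.7% of all genes, 6.88% higher and 6.86% lower. The median log2 change of the 10 was 0.14 in RBMXL3 against GFP, -0.16 in RBMXL3 against WT and -0.22 in GFP against WT, beside 0.00087, -0.014 and -0.0078 over all genes tested. The comparisons share control libraries, and nothing is read from these counts, since the genes were chosen with the values known.

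**Figure D1:**
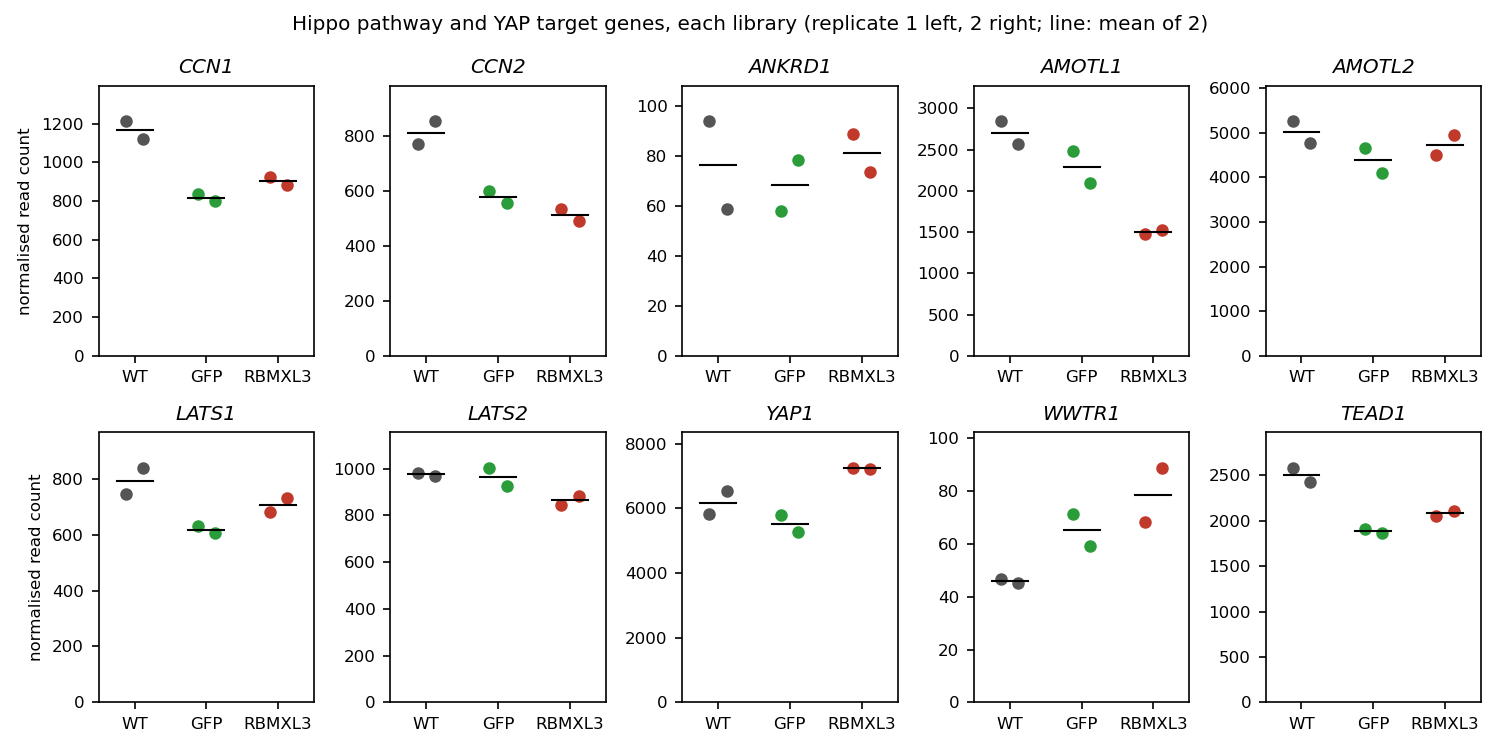
Normalised read counts of the 10 genes in each of the 6 libraries, as points (replicate 1 left, replicate 2 right) by group on axes from 0, with the mean of the 2 as a line. CCN2, AMOTL1 and LATS2 lie lower and YAP1 higher in both RBMXL3 libraries than in all 4 controls, while CCN1, CCN2, AMOTL1, LATS1 and TEAD1 are highest in WT. How many of all genes separate in this way was not counted.

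CCN1 and CCN2, the most used transcriptional readouts of YAP, were highest in non-transduced cells, and most of their difference lay between WT and both transduced groups. CCN1 (CYR61; ENSG00000142871.18; chr1:85580761-85583962, plus strand, GRCh38 with GENCODE 29) encodes a secreted integrin ligand. It measured 1212 and 1123 normalised reads in WT, 836 and 799 in GFP, against 926 and 881 in RBMXL3, so that the 3 groups did not overlap on this scale. The group levels were 1167 ± 63.6, 818 ± 26.5 and 903 ± 31.5. CCN1 was lower by a log2 change of -0.50 (SE 0.10) in GFP against WT, a fold of 0.707, and of -0.36 (SE 0.10) in RBMXL3 against WT, a fold of 0.779. RBMXL3 stood above GFP by 0.14 (SE 0.10), which is little more than its standard error. In summed TPM CCN1 was 32.7 and 28.4 in WT, 17.9 and 19.7 in GFP, with 21.1 and 18.8 in RBMXL3. GFP and RBMXL3 overlapped there, the change in RBMXL3 against WT was -0.59 and still called, and that in GFP against WT was -0.67 and not called. In GFP against WT 0 of all genes were called in summed TPM and 0 with no filter, so no gene could keep its call there. Leaving out 1 library at a time gave CCN1 changes of -0.42 to -0.31 in RBMXL3 against WT, and the call was lost without WT replicate 1 (-0.31) or without either RBMXL3 library (-0.40 and -0.33). Its call in GFP against WT was lost without either WT library (-0.45 and -0.56) and without either RBMXL3 library, where the change itself stayed at -0.50, and with no filter on low values.

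CCN2 (CTGF; ENSG00000118523.6; chr6:131948176-131951373, minus strand) encodes connective tissue growth factor. Its level was 772 and 856 normalised reads in WT, 599.7 and 556 in GFP, with 534 and 493 in RBMXL3. Both RBMXL3 libraries were below both GFP libraries, and these were below both WT libraries. CCN2 was lower by -0.64 (SE 0.11) in RBMXL3 against WT, a fold of 0.642, and by -0.48 (SE 0.11) in GFP against WT, a fold of 0.719. RBMXL3 stood below GFP by -0.16 (SE 0.11), a fold of 0.893. The call against WT held without each library in turn, with changes of -0.71 to -0.57, whereas the call in GFP against WT was lost without either WT library (-0.55 and -0.40) and without either RBMXL3 library at -0.48. That call was also lost with quantile normalisation (-0.45). It was lost with no filter and in summed TPM (-0.57) too, where 0 of all genes were called in GFP against WT. In summed transcript TPM, which scales by length and by library in another way, CCN2 was 22.6 and 25.9 in WT, 17.0 and 14.9 in GFP, against 16.4 and 15.3 in RBMXL3. There the groups GFP and RBMXL3 overlapped, and their log2 change was -0.0047, or -0.13 relative to the median gene on that scale. CCN1 and CCN2 are also expressed by fibroblasts, whose 6 listed markers summed to 8528 and 9728 normalised reads in WT, 13465 and 12005 in GFP, with 12688 and 13521 in RBMXL3. Most of this sum was COL1A2 (8093 to 12709), while the fibroblast marker DCN stood at 0 to 1.69 and PDGFRB at 27.7 to 36.0. COL3A1 was 114 and 124 in WT, 207 and 214 in GFP, against 503 and 490 in RBMXL3, and LUM was 79.6 and 65.4, 131 and 179, and 425 and 421. The part of these genes in the CCN1 and CCN2 levels was not tested. In bulk RNA, fewer cells of a type and less RNA per cell cannot be told apart.

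ANKRD1 (ENSG00000148677.7; chr10:90912096-90921276, minus strand), a transcriptional cofactor and a classical YAP target, did not separate the groups by normalised reads. It measured 94.0 and 58.7 normalised reads in WT, 58.2 and 78.4 in GFP, with 88.8 and 73.8 in RBMXL3. All 3 pairs of groups overlapped, and the 2 WT libraries were farther apart than any pair of group means. Its log2 changes were 0.20 (SE 0.20) in RBMXL3 against GFP, 0.09 (SE 0.20) in RBMXL3 against WT and -0.11 (SE 0.20) in GFP against WT. The directions of both differences from WT turned with the library left out. Without WT replicate 2 the changes were -0.17 for RBMXL3 and -0.36 for GFP, and without WT replicate 1 they were 0.34 and 0.15. That of RBMXL3 was -0.015 without RBMXL3 replicate 1, and that of GFP was 0.052 without GFP replicate 1. Settings that kept all 6 libraries and gave a value did not turn either direction. In TPM ANKRD1 was 2.84 and 1.97 in WT, 1.89 and 2.35 in GFP, with 3.0 and 2.93 in RBMXL3. RBMXL3 lay above the controls there, by 0.35 against GFP and 0.23 against WT, and was not called. Relative to the median gene these changes were 0.22 and 0.20.

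The promoter sequences of 8 of the 10 genes were matched by symbol in RefSeq (GRCh38.p14), in 11 windows reaching 250 bases before a gene start. They were searched on both strands for GGAATG, reverse complement CATTCC, the core of the motif bound by TEAD factors, since YAP reaches its targets through these factors. A match to these letters is a description of the sequence and not a bound site. Of all 35116 promoter windows of that length, 11.9% held the motif at least once, 0.940% held it at least 2 times and 0.0826% at least 3 times. It was found in 4 of the 11 windows of these genes, 1 each of CCN2, ANKRD1, AMOTL2 and YAP1, and another AMOTL2 window held 0 copies. CCN1 and TEAD1 had no window and were not searched. The CCN2 window held 3 copies, starting 169, 104 and 95 bases before the gene start, and is shown because it held the most copies among the 11 windows and CCN2 was called against WT. It is printed from 5′ to 3′ on the gene's strand, with the motif in capitals.
CCN2, chr6:131951374-131951622, minus strand: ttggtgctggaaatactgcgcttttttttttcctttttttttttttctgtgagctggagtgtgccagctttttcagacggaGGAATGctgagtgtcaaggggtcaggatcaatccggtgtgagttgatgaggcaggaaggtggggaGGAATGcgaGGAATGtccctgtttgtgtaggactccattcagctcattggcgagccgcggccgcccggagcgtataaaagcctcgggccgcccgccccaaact

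The ANKRD1 window held 2 copies, 220 and 128 bases before the RefSeq gene start. By GENCODE 29 ANKRD1 starts at base 90921276 of chromosome 10, so the second copy lies within the gene. AMOTL2 had 1 copy on the opposite strand, 69 bases before the RefSeq start, in the first exon of the transcript AMOTL2-201 by GENCODE 29. YAP1 had 1 copy 162 bases before its RefSeq start. These 4 matches are shown with the motif in capitals and 12 bases on each side. They are shown because the genes that carry them behaved differently by normalised reads. On that scale YAP1 was higher in RBMXL3 than in all controls, and ANKRD1 and AMOTL2 overlapped with controls. In summed TPM, RBMXL3 lay within the span of the controls for YAP1 and above the controls for ANKRD1.
ANKRD1, chr10:90921290-90921319, minus strand: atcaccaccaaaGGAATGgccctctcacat
ANKRD1, chr10:90921198-90921227, minus strand: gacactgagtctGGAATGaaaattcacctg
AMOTL2, chr3:134374499-134374528, minus strand: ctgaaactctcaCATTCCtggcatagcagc
YAP1, chr11:102110273-102110302, plus strand: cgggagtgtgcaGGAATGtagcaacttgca

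AMOTL1 had the largest difference of the 10 genes between RBMXL3 and both controls, and its relative AMOTL2 overlapped with the controls. AMOTL1 (ENSG00000166025.18; chr11:94706431-94876753, plus strand) encodes a junction scaffold that binds YAP. It measured 2845 and 2569.7 normalised reads in WT, 2480.2 and 2090.3 in GFP, against 1479 and 1522 in RBMXL3. Both RBMXL3 libraries were below all 4 controls, where the SDs were 195 in WT, 276 in GFP and 29.9 in RBMXL3. The log2 change was -0.59 (SE 0.11) in RBMXL3 against GFP, a fold of 0.662, and -0.84 (SE 0.11) in RBMXL3 against WT, a fold of 0.559. GFP differed from WT by -0.25 (SE 0.11), and the 2 controls did not overlap. Both calls of AMOTL1 held without each library in turn. By summed TPM, where AMOTL1 was 17.7 and 17.0 in WT, 14.7 and 12.2 in GFP, with 10.7 and 10.8 in RBMXL3, the call against WT held at -0.65. The change against GFP became -0.29 and was not called. On that scale the median gene itself shifted by 0.126 in RBMXL3 against GFP, and AMOTL1 stood at -0.42 relative to it.

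AMOTL2 (ENSG00000114019.15; chr3:134355874-134375479, minus strand) encodes a related scaffold and is induced by YAP in many cells. It measured 5254 and 4772 normalised reads in WT, 4654 and 4098 in GFP, against 4499.8 and 4942 in RBMXL3. The RBMXL3 libraries lay within the span of the controls. The log2 change was 0.11 in RBMXL3 against GFP, -0.09 in RBMXL3 against WT and -0.20 in GFP against WT (SE 0.10 each), and the difference between RBMXL3 and WT turned to 0.02 under quantile normalisation. In TPM AMOTL2 was 98.8 and 91.4 in WT, 82.2 and 71.9 in GFP, with 82.3 and 89.9 in RBMXL3, and its change in GFP against WT was -0.30. Per length, AMOTL2 was the more abundant of the pair in every library. The ratio of AMOTL2 to AMOTL1 in TPM was 5.57 and 5.37 in WT, 5.58 and 5.90 in GFP, with 7.69 and 8.32 in RBMXL3. The RBMXL3 ratios were above those of all 4 controls.

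Neither LATS kinase was called in any comparison. LATS1 (ENSG00000131023.13; chr6:149658153-149718256, minus strand) measured 743 and 839 normalised reads in WT, 630.2 and 605 in GFP, against 682 and 731 in RBMXL3. The groups did not overlap, with GFP lowest and RBMXL3 between the controls. The log2 change was 0.19 in RBMXL3 against GFP, -0.16 in RBMXL3 against WT and -0.34 in GFP against WT (SE 0.11 each). In TPM LATS1 was 8.15 and 9.41 in WT, 7.5 and 5.54 in GFP, with 6.26 and 6.93 in RBMXL3. RBMXL3 and GFP overlapped on that scale, where RBMXL3 differed by 0.025 from GFP and by -0.36 from WT. Relative to the median gene these changes were -0.10 and -0.39. LATS2 (ENSG00000150457.9; chr13:20973032-21061547, minus strand) measured 983 and 969 normalised reads in WT, 1004 and 925 in GFP, with 846 and 885 in RBMXL3. Both RBMXL3 libraries were below the 4 controls, by -0.15 against GFP and -0.17 against WT (SE 0.10 each). GFP and WT overlapped at -0.02, a difference that turned to 0.01 under quantile normalisation and to 0.04 without GFP replicate 2. In TPM LATS2 was 12.3 and 13.1 in WT, 12.5 and 11.1 in GFP, with 10.7 and 12.4 in RBMXL3. There RBMXL3 overlapped with both controls and differed from GFP by -0.028, or -0.15 relative to the median gene. LATS2 TPM exceeded that of LATS1 in all 6 libraries, by a ratio of 1.5 and 1.4 in WT, 1.67 and 2.0 in GFP, against 1.71 and 1.79 in RBMXL3.

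YAP1 was the coactivator that these cells expressed at a high level, and it was higher in RBMXL3 than in all 4 controls. YAP1 (ENSG00000137693.14; chr11:102110461-102233423, plus strand) measured 5830.2 and 6529.5 normalised reads in WT, 5809.6 and 5260.3 in GFP, with 7261 and 7235 in RBMXL3. The log2 change was 0.39 (SE 0.10) in RBMXL3 against GFP, a fold of 1.31, 0.23 (SE 0.10) in RBMXL3 against WT, a fold of 1.17, and -0.16 (SE 0.10) in GFP against WT. The call against GFP was lost without either RBMXL3 library (0.39 in both cases, the spread then resting on the other libraries) and with no filter. The order of the groups did not hold in TPM, where YAP1 was 104 and 115 in WT, 122 and 77.6 in GFP, against 111 and 111 in RBMXL3. There RBMXL3 lay within the span of both controls, at changes of 0.19 against GFP and 0.02 against WT, and at 0.06 against GFP relative to the median gene.

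WWTR1 (ENSG00000018408.15; chr3:149517235-149736714, minus strand), which encodes TAZ, the paralog of YAP, was the least abundant of the 10 genes. It measured 46.6 and 45.3 normalised reads in WT, 71.2 and 59.3 in GFP, with 68.2 and 88.8 in RBMXL3, from 53 to 83 recovered reads per library. Both transduced groups were above WT and overlapped with each other. The log2 change was 0.55 (SE 0.17) in RBMXL3 against WT, 0.35 (SE 0.17) in GFP against WT and 0.20 (SE 0.17) in RBMXL3 against GFP. Leaving out 1 library at a time gave 0.40 to 0.69 in RBMXL3 against WT, and the call was lost without either WT or either RBMXL3 library. It was also lost with no filter, with quantile normalisation (0.46), by DESeq2 (0.79) and in summed TPM (0.51). The ratio of YAP1 to WWTR1 in TPM was 97.4 and 163 in WT, 62.1 and 88.5 in GFP, against 55.9 and 80.5 in RBMXL3, so that YAP1 was by far the more abundant transcript throughout.

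TEAD1 (ENSG00000187079.20; chr11:12674591-12944483, plus strand), which encodes one of the DNA-binding partners of YAP, was highest in WT, as CCN1 and CCN2 were. It measured 2583 and 2427 normalised reads in WT, 1907 and 1865 in GFP, with 2052 and 2108 in RBMXL3. No groups overlapped on this scale, and RBMXL3 was nearer to GFP. The log2 change was -0.40 (SE 0.09) in GFP against WT, -0.26 (SE 0.09) in RBMXL3 against WT and 0.14 (SE 0.09) in RBMXL3 against GFP. In TPM TEAD1 was 18.6 and 17.7 in WT, 14.2 and 12.8 in GFP, with 16.3 and 16.6 in RBMXL3. There RBMXL3 was nearer to WT (-0.14) than to GFP (0.27). Relative to the median gene on that scale, the changes were -0.16 against WT and 0.14 against GFP, so this order did not hold. The call of RBMXL3 against WT was lost in 8 of 9 other settings and without either WT or either RBMXL3 library, where the change ranged from -0.31 to -0.22. The call of GFP against WT was lost without the same 4 libraries, at -0.45 to -0.36, and with quantile normalisation (-0.35). It was also lost with no filter and in summed TPM (-0.41), where 0 of all genes were called in that comparison.

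**Figure D2:**
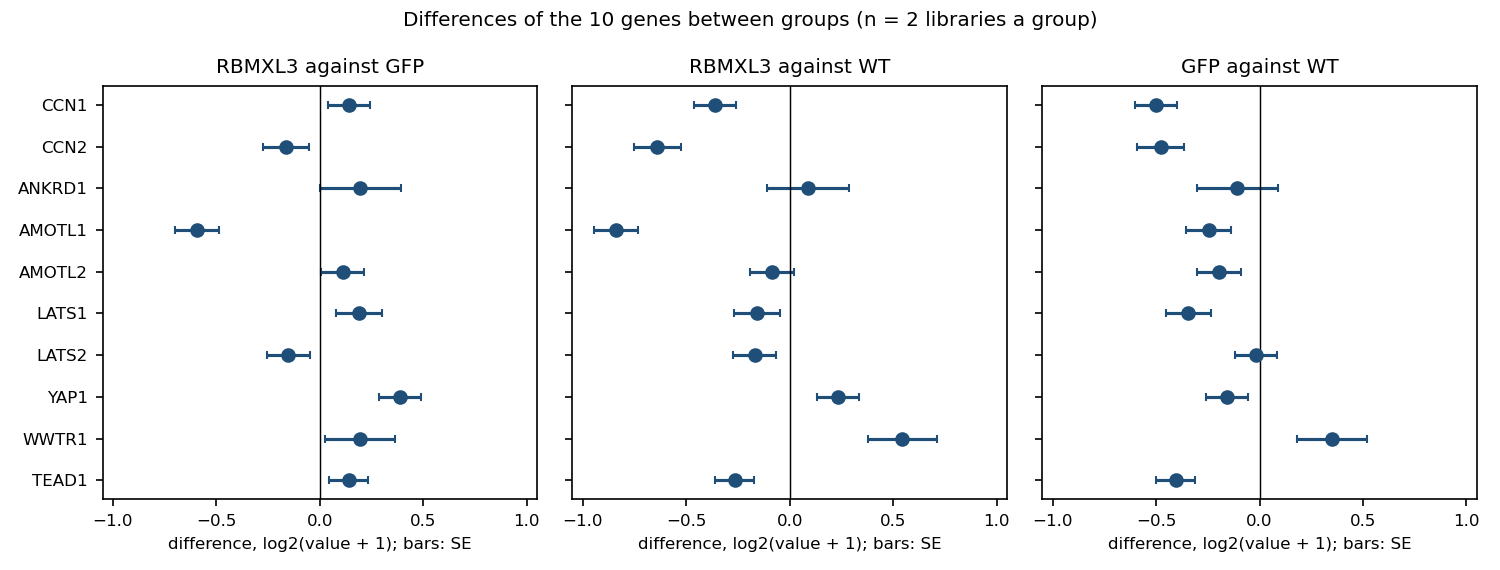
Log2 change with its standard error for each of the 10 genes for RBMXL3 against GFP, for RBMXL3 against WT and for GFP against WT, on the log2(value + 1) scale, where the vertical line at 0 is no difference. AMOTL1 is farthest to the left in both RBMXL3 comparisons (-0.59 and -0.84). CCN1, CCN2, TEAD1, AMOTL1, AMOTL2, LATS1 and LATS2 are left of 0 in both comparisons with WT.

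Levels were compared between genes in TPM, which is scaled by transcript length. In WT the order was YAP1 (109), AMOTL2 (95.1), CCN1 (30.6), CCN2 (24.2), TEAD1 (18.2), AMOTL1 (17.4), LATS2 (12.7), LATS1 (8.78), ANKRD1 (2.41) and WWTR1 (0.883). GFP had the same order. In RBMXL3 the levels were 111 for YAP1, 86.1 for AMOTL2, 19.9 for CCN1, 16.4 for TEAD1, 15.9 for CCN2, 11.6 for LATS2, 10.7 for AMOTL1, 6.59 for LATS1, 2.97 for ANKRD1 and 1.68 for WWTR1. TEAD1 stood above CCN2 there, and LATS2 above AMOTL1, but both are pairs of neighbours whose libraries were close: TEAD1 was 16.3 and 16.6 beside 16.4 and 15.3 for CCN2, and LATS2 was 10.7 and 12.4 beside 10.7 and 10.8 for AMOTL1. In GFP the YAP1 libraries (122 and 77.6) overlapped with the AMOTL2 libraries (82.2 and 71.9), as did TEAD1 (14.2 and 12.8) with AMOTL1 (14.7 and 12.2), AMOTL1 with LATS2 (12.5 and 11.1) and ANKRD1 (1.89 and 2.35) with WWTR1 (1.97 and 0.877), so these neighbours did not differ beyond their spread. TEAD1 was a minor TEAD transcript in this line. It made up 7.58% and 7.13% of the summed TPM of TEAD1 to TEAD4 in WT, 5.98% and 5.81% in GFP, against 6.59% and 6.54% in RBMXL3. TEAD4 was the main one, at 68.6% and 71.1% in WT, 71.1% and 69.3% in GFP, with 60.3% and 62.4% in RBMXL3.

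**Figure D3:**
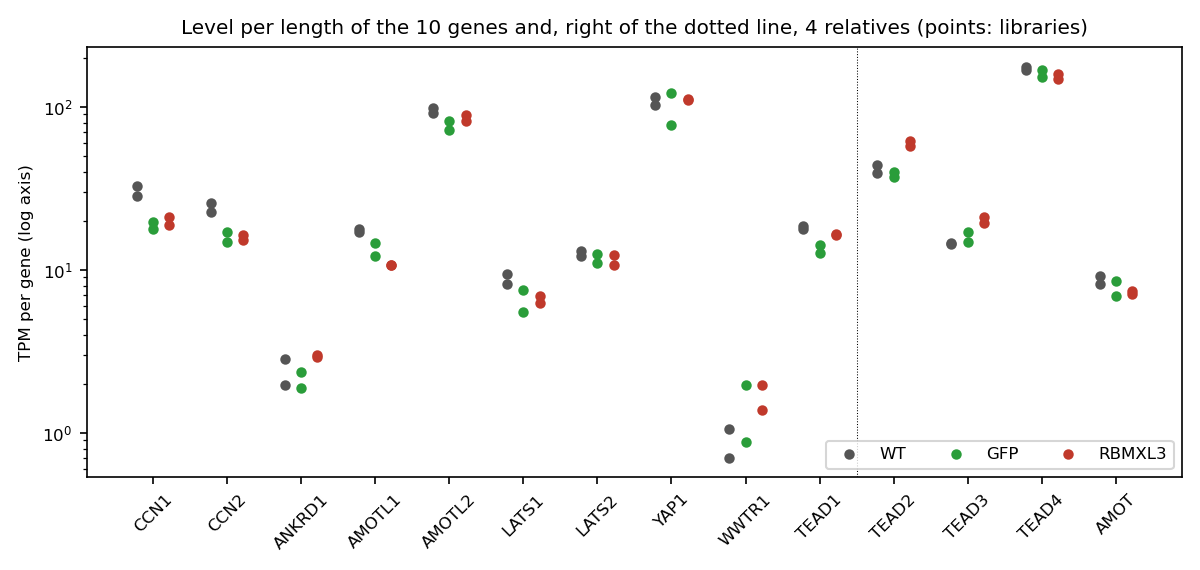
Summed TPM on a log axis of the 10 genes and, right of the dotted line, of TEAD2, TEAD3, TEAD4 and AMOT, with 1 point per library coloured by group. YAP1 and AMOTL2 lie at 71.9 to 122 TPM in every library, ANKRD1 and WWTR1 are lowest, and TEAD4 lies far above TEAD1.

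Transcript shares are each transcript's percent of the summed TPM of its gene. For AMOTL2 the estimated mix in RBMXL3 differed from that of the controls, while its gene level lay within their span. AMOTL2-201 held 8.84% and 7.64% of AMOTL2 TPM in WT, 4.49% and 5.73% in GFP, against 23.1% and 21.5% in RBMXL3. The retained-intron transcript AMOTL2-207 held 26.4% and 23.7% in WT, 17.6% and 24.5% in GFP, with 8.98% and 8.98% in RBMXL3. RBMXL3 lay above all 4 controls for the first and below all 4 for the other. The main coding transcript AMOTL2-202 stayed between 56.6% and 61.1% in all 6 libraries. AMOTL2-209 was variable, at 11.8% in GFP replicate 1 and 3.36% to 6.85% in the others. In TPM, AMOTL2-201 was 8.74 and 6.99 in WT, 3.70 and 4.12 in GFP, against 19.0 and 19.3 in RBMXL3. AMOTL2-207 was 26.1 and 21.7 in WT, 14.4 and 17.6 in GFP, with 7.39 and 8.07 in RBMXL3. By GENCODE 29, AMOTL2-201 starts at base 134374594 and AMOTL2-202 at base 134374447 of chromosome 3. AMOTL2-201 holds all 4335 bases of AMOTL2-202 and 153 more, of which 147 lie upstream of the start of AMOTL2-202, and 417 bases of AMOTL2-207 lie in introns of AMOTL2-202. Because the first 2 share nearly all their sequence, the split between them rests on few bases, and the shares are the estimates of Salmon with no counting interval and no test here.

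**Figure D4:**
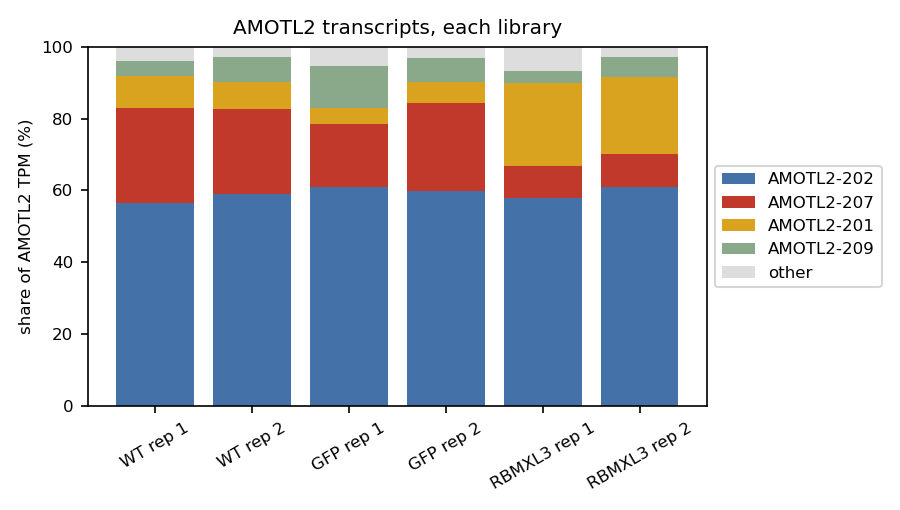
Share of AMOTL2 TPM, in percent, held by each transcript with at least 10% in a library, stacked to 100% with all others in grey, 1 bar per library. AMOTL2-201 is higher in both RBMXL3 libraries (23.1% and 21.5%) and AMOTL2-207 lower (8.98% in both) than in any control, and AMOTL2-202 stays between 56.6% and 61.1%.

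The other genes of the set showed less regular shares. CCN2 and ANKRD1 had 1 annotated transcript each, and CYR61-201 held 93.2% to 100% of CCN1. YAP1-201 held 44.0% and 47.4% of YAP1 in WT, 40.5% and 50.1% in GFP, against 48.0% and 51.9% in RBMXL3, which overlapped. YAP1-208 held 22.6% and 22.9%, 27.0% and 17.2%, and 17.6% and 14.5%, and YAP1-207 held 11.3% in GFP replicate 1 alone. YAP1-209 was at 12.7% and 6.25% in RBMXL3 and at 0 to 4.85% in the controls. YAP1-202 was at 10.3% and 10.5% in RBMXL3 and at 5.00% to 9.90% in the controls, and YAP1-210 was at 5.61% to 15.6% over all libraries. For LATS1, AMOTL1, TEAD1 and WWTR1 the replicates of a group disagreed widely. AMOTL1-203 held 64.4% and 96.9% in the RBMXL3 libraries, with AMOTL1-202 at 26.7% and 0. LATS1-207 held 54.7% and 97.3% in the GFP libraries, with LATS1-201 at 45.3% and 0, and LATS1-202 reached 15.0% in WT replicate 2. TEAD1-206 held 80.2% and 55.8% in the GFP libraries, with TEAD1-203 at 11.1% and 36.8%. WWTR1-201 held 44.5% and 97.4% in the RBMXL3 libraries, and LATS2-201 held 89.7% to 100% of LATS2 in all libraries.

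Other genes of the pathway were listed by name, 59 in all, of which 51 passed the filter, and called genes among them were fewer than not called in each comparison. The list was made with earlier results of these data known, so its p-values are read as a description. In RBMXL3 against GFP 11 of 51 were called (6 higher, 5 lower), or 21.6%, near the 20.9% of all genes. Against WT 22 were called (6 higher, 16 lower), or 43.1%, beside 29.9% of all genes. In GFP against WT 3 were called (1 higher, 2 lower), or 5.88%, beside 3.67%. Against both controls 7 were called (2 higher, 5 lower), or 13.7%, the same share as of all genes. Their median log2 change was -0.01, -0.12 and -0.15 for RBMXL3 against GFP, for RBMXL3 against WT and for GFP against WT, and these counts describe the list without setting it apart from other genes. The counts of called genes all fell without either WT or either RBMXL3 library, and none fell without either GFP library. Such a fit leaves 1 sample in a group and changes the estimate of spread for every gene. The share of all genes called was not counted there, so these shifts cannot be ascribed to the list. With no filter on low values, where 30989 genes were tested, 2 of the list were called against GFP, both higher, beside 950 of all genes. CCDC80, FOXF2, LIMD1, MYOF, STRN3 and TEAD2 then lost their calls against GFP, and MOB1B and AMOT theirs against WT. IGFBP3, TAOK1 and ASAP1 lost their calls in GFP against WT with no filter, where 0 of all genes were called.

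Among the 32 kinases, adaptors and regulators upstream of YAP, 6 were called in RBMXL3 against GFP (4 higher, 2 lower), 13 against WT (3 higher, 10 lower), 1 in GFP against WT and 3 against both controls (1 higher, 2 lower). These are 18.8%, 40.6%, 3.12% and 9.38% of the list, beside 20.9%, 29.9%, 3.67% and 13.7% of all genes. The medians were 0.05, -0.11 and -0.17 for RBMXL3 against GFP, for RBMXL3 against WT and for GFP against WT. MOB1B, a coactivator of the LATS kinases, was at 1129.9 ± 176 normalised reads in GFP and 1492 ± 74.4 in WT and rose to 1956 ± 4.91 in RBMXL3. Its log2 change was 0.79 (SE 0.11; limma adjusted p = 0.000979) against GFP and 0.39 (SE 0.11; limma adjusted p = 0.0235) against WT. In summed TPM the difference from WT was reversed, at -0.038, and that from GFP was 0.31 and not called. The call against WT was lost without either WT or either RBMXL3 library (0.34 to 0.44). LIMD1, a LIM-domain protein that restrains LATS, fell to 899 ± 40.1 from 1181 ± 34.0 in GFP (-0.39, SE 0.10; limma adjusted p = 0.0173) and from 1323 ± 23.6 in WT (-0.55, SE 0.10; limma adjusted p = 0.00183). Its change against GFP was 0.24 in summed TPM, the opposite direction, and lost its call without either RBMXL3 library. Against WT the change in summed TPM was -0.15 and not called. STRN3, a subunit of the STRIPAK phosphatase complex that counteracts the MST kinases, fell to 829.7 ± 6.23 from 1051 ± 10.9 in GFP (-0.33; limma adjusted p = 0.0313) and 1103 ± 8.34 in WT (-0.40; limma adjusted p = 0.0096). The call against GFP was also lost by DESeq2 (-0.33). Both STRN3 calls were lost without either RBMXL3 library, and that against WT also without either WT library.

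AMOT, the founding member of the angiomotin family, stood at 1173 ± 60.9 in WT, 1122 ± 119.9 in GFP and 898 ± 5.14 in RBMXL3. It fell against WT (-0.38, SE 0.11; limma adjusted p = 0.0205), was not called against GFP, and lost the call against WT without either WT or either RBMXL3 library (-0.43 to -0.32) and in summed TPM (-0.22). The MST kinases were not called in any comparison, with STK3 at 1056 ± 99.8, 793 ± 185 and 937 ± 19.5 and STK4 at 1873 ± 128, 1565 ± 102 and 1721 ± 3.90 in WT, GFP and RBMXL3. NF2, the upstream tumour suppressor merlin, was not called either, at 485 ± 63.9, 504 ± 40.3 and 448 ± 23.2. TAOK1, a kinase that activates the MST kinases, was the only one of the 32 called in GFP against WT. It fell to 1625 ± 95.8 in GFP from 2397 ± 210.3 in WT (-0.55, SE 0.10; limma adjusted p = 0.0174), and RBMXL3 stood at 2357 ± 77.2. The TAOK1 call was lost without either WT library (-0.64 and -0.46). It was also lost in summed TPM (-0.51), where 0 of all genes were called in GFP against WT.

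Of the TEAD and VGLL genes, 5 of 7 were tested, 1 was called in RBMXL3 against GFP and 2 against WT, all higher (20% and 40% of the 5, beside 20.9% and 29.9% of all genes), and 0 in GFP against WT by limma, where 2 had an unadjusted p under 0.05. TEAD2 rose with RBMXL3 to 2109 ± 146 from 1588 ± 24.2 in GFP (0.40, SE 0.10; limma adjusted p = 0.0176) and 1577 ± 149 in WT (0.42, SE 0.10; limma adjusted p = 0.0106). Both TEAD2 calls were lost without either RBMXL3 library, and that against WT also without WT replicate 2, at 0.32 to 0.51. TEAD3 rose to 929 ± 37.8 in RBMXL3 from 697 ± 2.13 in WT (0.40, SE 0.11; limma adjusted p = 0.0142), with GFP at 826 ± 64.0, and lost its call without either WT or either RBMXL3 library (0.36 to 0.44). TEAD4, the most abundant TEAD here, was not called, at 4252 ± 76.1, 4533 ± 503 and 3724 ± 66.8 in WT, GFP and RBMXL3. Nor was VGLL4, which competes with YAP for TEAD, at 1131 ± 93.1, 1024 ± 82.8 and 1015 ± 73.7.

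Among 17 further target genes 15 were tested, and 4 were called in RBMXL3 against GFP (1 higher, 3 lower), 8 against WT (1 higher, 7 lower), 2 in GFP against WT (1 higher, 1 lower) and 3 against both controls, all lower. These are 26.7%, 53.3%, 13.3% and 20% of the 15, beside 20.9%, 29.9%, 3.67% and 13.7% of all genes. Their medians were -0.17, -0.25 and -0.21 in the same order of comparisons as above. CCDC80, a secreted matrix-associated protein, fell with RBMXL3 to 401 ± 1.18 from 591 ± 65.1 in GFP (-0.53, SE 0.12; limma adjusted p = 0.0108) and 725 ± 73.2 in WT (-0.81; limma adjusted p = 0.000624), and only the call against GFP was lost without either RBMXL3 library (-0.64 to -0.42 over libraries left out). FOXF2, a forkhead transcription factor, fell to 69.2 ± 4.10 from 103 ± 3.32 in GFP (-0.45, SE 0.15; limma adjusted p = 0.0481) and 141 ± 9.85 in WT (-0.83; limma adjusted p = 0.00168). Its call against GFP was lost without any 1 of the 6 libraries (-0.49 to -0.40), while that against WT held without each. The call against GFP was also lost by edgeR and DESeq2 (-0.57 each) and in summed TPM (-0.29). MYOF, a ferlin of membrane repair, fell to 611 ± 38.1 from 804 ± 81.6 in GFP (-0.38, SE 0.12; limma adjusted p = 0.0367) and 932 ± 78.1 in WT (-0.59; limma adjusted p = 0.00308). In summed TPM its change against GFP was 0.020, opposite in sign, but the median gene shifted by 0.126 there and MYOF lay below it. The call against GFP was lost without any 1 library other than GFP replicate 2. The call against WT was lost without WT replicate 1 or RBMXL3 replicate 1 and in summed TPM (-0.22). DESeq2 did not call MYOF against GFP (-0.38).

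The 2 target genes called in GFP against WT, named after their values were seen as was TAOK1, moved in opposite directions. IGFBP3, a secreted binding protein of insulin-like growth factors, rose from 1186 ± 158 in WT to 1987 ± 224 in GFP (0.73, SE 0.12; limma adjusted p = 0.0132) and 2265 ± 131 in RBMXL3 (0.92; limma adjusted p = 0.00023). ASAP1, a GTPase-activating protein of ARF factors, fell from 1770.1 ± 59.1 in WT to 1267 ± 175 in GFP (-0.48, SE 0.11; limma adjusted p = 0.0383) and stood at 1657 ± 54.9 in RBMXL3. Both calls of GFP against WT were lost without either WT library (0.60 to 0.87 for IGFBP3 and -0.62 to -0.34 for ASAP1), and that of ASAP1 also without either RBMXL3 library. In summed TPM neither was called (0.62 and -0.50), where 0 of all genes were called in GFP against WT. ASAP1 was also not called after quantile normalisation (-0.45). The remaining CCN genes, CCN3 to CCN6, did not pass the filter on low values, with at most 7.39 normalised reads in any library.

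**Figure D5:**
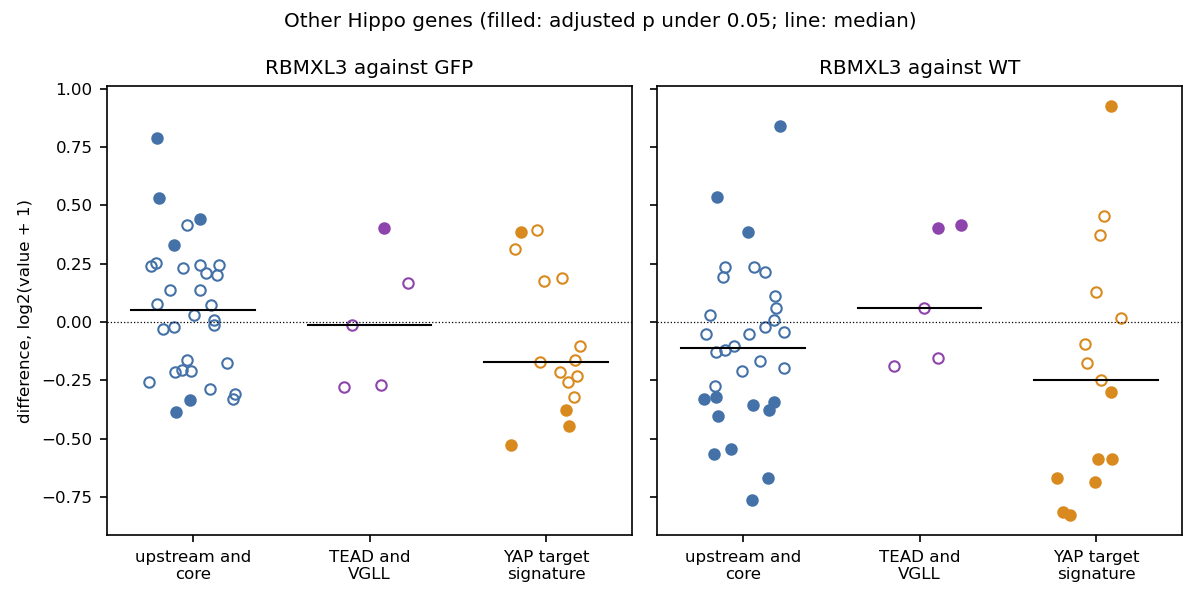
Log2 changes on the log2(value + 1) scale of the other pathway genes tested, 1 point per gene spread sideways at random, in 3 lists (upstream and core, TEAD and VGLL, further target genes) for RBMXL3 against GFP and against WT; filled points were called and lines are medians. The target genes have the lowest medians, -0.17 and -0.25, and in RBMXL3 against WT 7 of their 8 filled points lie below 0, where 15.3% of all genes were called lower and 14.6% higher. PTPN14 is plotted both among the upstream genes and among the target genes.

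The genes most like the classical targets across the 6 libraries were found by the Euclidean distance between log2 profiles, each less its own mean. Near to CCN1 were DNAJC13 (0.0737) and FAM13B (0.0873). DNAJC13, an endosomal co-chaperone, averaged 3152 normalised reads in WT, 2138 in GFP and 2387 in RBMXL3, the same order of groups as CCN1. The nearest to CCN2 were NBPF20 (0.0763), NBPF26 (0.119) and DOCK5 (0.127). The NBPF genes are near-identical copies whose reads the counting could split, so their values are uncertain. DOCK5, which is also in the list of further target genes, averaged 1073 in WT, 778 in GFP and 657 in RBMXL3. The nearest to ANKRD1 were EIF3C (0.131), F8 (0.147) and CYP4V2 (0.160), all at larger distances than the nearest gene of CCN1 or CCN2. Over 6 libraries and 14292 genes such likeness is a description of these libraries.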

How the data were processed

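RNA-seq libraries of 3 groups with 2 libraries each were grouped by the labels. Per the submitters' processing notes, Trim Galore 0.6.10, STAR 2.7.11a, DESeq2 and Salmon 1.10.2 were used with GRCh38; the read counter, its strand setting and the annotation are not given in the sources used here, and the kit is stranded per the labels' protocols. Reads from a gene and its antisense partner may therefore not be separated. The authors deposited a gene table of normalised signal, which is read counts divided by 1 size factor per library: 100% of 145320 nonzero values came out as whole reads within 0.01 reads. The authors also deposited a table of TPM per transcript, which keeps no depth, and 79.9% of its 251955 transcripts were matched to genes in GENCODE 29. The number of table columns of no sample was 0.

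The deposited signal was divided by a common factor of 23.9, and a gene had to reach 1 in 2 or more libraries. Their log2(value + 1) was tested two-sided with limma 3.58.1 (R 4.3.3) with an intensity trend, all 6 libraries in 1 fit, 1 coefficient per group and no covariate. P-values were adjusted by Benjamini-Hochberg over all 14292 genes. The 10 genes and all lists were chosen with earlier results of these data known, so p-values are not given for the 10 and those of the lists are a description. The text names all 10 genes, 8 fixed pathway genes (STK3, STK4, NF2, AMOT, TEAD2, TEAD3, TEAD4 and VGLL4), up to 10 other pathway genes called against both controls, the 3 genes nearest to CCN1, CCN2 and ANKRD1, and transcripts with at least 10% of their gene in a library. Of the genes nearest to CCN1, 1 is not reported here. Alternatives were a pseudocount of 0.1, no filter, a mean of at least 5, quantile normalisation, TMM, edgeR 4.0.16 and DESeq2 1.42.0 on the recovered read counts, summed TPM, a replicate block, a minimum log2 change of 1, and each library left out. The scripts were tested on simulated data.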

Additional observations from a re-analysis of the deposited data

How the results depend on the processing

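The main counts of called genes among the 51 other pathway genes were 11 (RBMXL3 against GFP), 22 (RBMXL3 against WT), 3 (GFP against WT) and 7 (both controls). Of all 14292 genes, 2986, 4271 and 524 were called in the first 3 comparisons. With no filter (59 genes) the list counts were 2, 16, 0 and 0, beside 950, 2327 and 0 of all 30989 genes. By summed TPM they were 4, 8, 0 and 4, beside 988, 1638 and 0 of 14262. With the replicate block they were 7, 21, 2 and 4, beside 2386, 3697 and 191 of 14292. Quantile normalisation called 327 of all genes in GFP against WT, and DESeq2 called 3587 in RBMXL3 against WT. The limma counts of 0 for GFP against WT stood beside 21 (no filter) and 22 (TPM) genes with an unadjusted limma p under 0.05. Among the filtered genes, where the main limma fit called 3, DESeq2 called 6 and edgeR 3 on the recovered read counts. Leaving out 1 library gave 1 to 20, 9 to 31, 0 to 14 and 0 to 16. A minimum log2 change of 1 left 0 in each comparison, and 0 of the 10 genes described. Of these 10, 2, 5 and 3 were called in the 3 comparisons. With no filter the counts were 1, 3 and 0, by TPM 0, 3 and 0, and with the replicate block 2, 4 and 0. Quantile normalisation called 1 in GFP against WT, and DESeq2 called 3 in RBMXL3 against WT. These counts also moved without 1 library, where the share of all genes called was not counted. Among the 10, unadjusted p was under 0.05 for 4 (no filter), 5 (TPM) and 5 (replicate block) in GFP against WT, and for 2 by TPM against GFP. With no filter 30989 genes were tested, and for the other settings the cause was not tested. Replicates of the same number did not deviate together (correlations -0.156, 0.0337 and -0.0941). With 1 difference between replicates per group, this cannot tell whether libraries of the same number were prepared together. The block ended the calls in GFP against WT of CCN1, CCN2, TEAD1 and ASAP1, that of TEAD1 in RBMXL3 against WT, and those against GFP of FOXF2, MYOF and STRN3. Among the called differences of the other pathway genes named, those reversed by summed TPM were MOB1B against WT (-0.038), LIMD1 against GFP (0.24) and MYOF against GFP (0.020); genes of the list that are not named, and differences that were not called, were not compared there. On that scale the median gene shifted by 0.126 in RBMXL3 against GFP, so that MYOF lay below it and LIMD1 above it. There 78.8% of calls against GFP were higher, against 50.3% in the main test, and 60.7% against 48.8% for WT. Directions of the 10 genes that turned are given beside each gene. With 17685680 to 29318007 reads, depth limits WWTR1 and ANKRD1 most.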
